A study of Mus musculus with 4 samples.

Results

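The sites described here are 3141 intragenic stretches of chromatin that were open after adipocyte differentiation in both genotypes and in neither genotype before it. They were chosen by the peak calls themselves. The 4 ATAC-seq peak lists were merged wherever peaks shared at least 1 bp on chromosomes 1 to 19. A merged region was kept when it held a peak of both day 8 lists and none of either day 0 list, did not touch the stretch between 1000 bp before and 100 bp after any annotated transcription start site (TSS), and had its midpoint inside a protein-coding gene. The presence of peaks at day 8 and their absence at day 0 is therefore how these sites were found, and not a result. They made up 3.19% of 98469 merged regions and 7.66% of the 40989 intragenic regions outside the TSS windows. They were 53.1% of the 5920 regions opened in both genotypes, of which a further 409 lay at a TSS and 2370 outside protein-coding genes.

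ATAC-seq marks open chromatin through a transposase that inserts sequencing adapters where DNA is accessible. The cells were im-scWAT cells, mouse preadipocytes immortalised in culture and taken from the stromal vascular fraction of subcutaneous white fat. They carried normal Jmjd1a (Jmjd1a +/+, WT) or were homozygous for a histidine-to-tyrosine change (Jmjd1a HY/HY, HY) designed to remove the activity of the encoded histone H3 lysine 9 demethylase. Both genotypes were assayed on day 0 at confluence, before differentiation (D0), and on day 8 of beige adipocyte differentiation (D8), in which indomethacin, dexamethasone, isobutylmethylxanthine, rosiglitazone, insulin and T3 were given first and insulin, T3 and rosiglitazone afterwards. Each group was 1 library, so every difference below is between libraries, and no test of genotype or day was made. The cultures of the 2 genotypes were derived separately, so culture and genotype cannot be told apart. The intervals given cover counting error only and treat sites as independent.

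In WT cells 71523 peaks were listed on day 0 and 41228 on day 8, and in HY cells 77994 and 48964. The lowest local background in a list, which follows its depth, was 0.659, 0.531, 0.708 and 0.494 tags in the same order, so both D0 libraries were deeper than the D8 libraries they are set against. The labels were checked at promoters. Of 8 adipocyte marker genes, 4 had a promoter peak at D0 and 8 at D8 in each genotype, with Adipoq, Fabp4, Plin1 and Cidec the ones that differed. Of 8 preadipocyte and fibroblast markers, 8 had one in WT D0, 7 in HY D0 and 3 in each D8 library. Of 4 endothelial markers, 2 had one in WT D0, 1 in HY D0 and 0 in the D8 libraries, and 4 macrophage and leukocyte markers had none in any library. Of 4 muscle markers, Des had one in WT D8 and HY D0.

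Distal regulatory elements in introns are common in mammalian genes. During adipogenesis, C/EBP factors and the glucocorticoid receptor act early on closed chromatin, and PPARG, which binds DNA with RXR as a direct repeat of 2 half-sites, acts with them at adipocyte enhancers. NFI and EBF factors are further regulators of the adipocyte and thermogenic fate, and AP-1 and TEAD factors are typical of proliferating, undifferentiated mesenchymal cells. CTCF bounds chromatin loops and is bound at largely the same places in many cell types. Dexamethasone is a ligand of the glucocorticoid receptor and rosiglitazone a ligand of PPARG.

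To show what such sites look like, 8 intronic examples are printed below with a motif match within 25 bp of the WT D8 summit. They were picked by the lower of their 2 values of -log10 q, only among intronic sites with the motif that close to the summit. Over all sites holding a motif they need not be the strongest: at Phyhd1 that lower value was 5.55. Each run is the 151 bases centred on the WT D8 summit, 5′ to 3′ on the plus strand of the mouse NCBIM37 (mm9) reference, and the capitals mark each match, on either strand, to the named motif.

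Zbtb16, which encodes the zinc finger repressor PLZF, held 2 matches to the C/EBP motif TTGCNNAA in intron 2 of 6, at chr9:48553117-48553267. The pileup was 50 tags in WT D8 and 55 in HY D8.
Zbtb16: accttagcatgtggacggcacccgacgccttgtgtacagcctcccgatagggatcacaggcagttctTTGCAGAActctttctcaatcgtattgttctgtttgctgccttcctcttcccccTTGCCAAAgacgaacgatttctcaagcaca

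Aco1, which encodes the cytosolic aconitase that doubles as an iron sensor, held 1 C/EBP match in intron 11 of 20, at chr4:40128860-40129010, with pileups of 33 and 42.
Aco1: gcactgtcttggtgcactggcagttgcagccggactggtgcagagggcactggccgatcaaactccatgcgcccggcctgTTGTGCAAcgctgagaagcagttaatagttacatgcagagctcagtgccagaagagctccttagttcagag

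Zmiz1, a PIAS-like transcriptional coregulator gene, held the EBF motif, TCCC and GGGA with 2 bases between them, in intron 5 of 23, at chr14:26399232-26399382, with pileups of 32 and 40.
Zmiz1: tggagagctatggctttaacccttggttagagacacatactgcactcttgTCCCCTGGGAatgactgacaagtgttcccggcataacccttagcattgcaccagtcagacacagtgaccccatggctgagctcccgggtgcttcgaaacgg

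Thada held an EBF match in intron 22 of 37, at chr17:84805052-84805202, with pileups of 19 and 25. The matched letters, TCCCCTGGGA, were the same as in Zmiz1.
Thada: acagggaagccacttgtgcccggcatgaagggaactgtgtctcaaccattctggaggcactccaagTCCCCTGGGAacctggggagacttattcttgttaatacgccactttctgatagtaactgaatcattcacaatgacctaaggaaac

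Lrrc27 held the NFI motif, TGGC and GCCA with 5 bases between them, in intron 3 of 10, at chr7:146405030-146405180, with pileups of 19 and 23.
Lrrc27: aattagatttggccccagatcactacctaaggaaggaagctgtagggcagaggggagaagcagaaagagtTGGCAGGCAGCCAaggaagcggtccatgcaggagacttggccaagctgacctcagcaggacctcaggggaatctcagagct

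Pla2g15, which encodes a lysosomal phospholipase, held the PPARG:RXR repeat, AGGNCA and again AGGNCA with 1 base between them, in intron 2 of 5, at chr8:108683935-108684085, with pileups of 20 and 22.
Pla2g15: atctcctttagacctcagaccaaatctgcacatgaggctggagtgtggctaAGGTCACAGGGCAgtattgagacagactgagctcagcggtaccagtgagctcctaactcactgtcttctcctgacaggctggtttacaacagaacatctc

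Phyhd1 held a PPARG:RXR match on the minus strand in intron 1 of 4, at chr2:30138782-30138932, with pileups of 24 and 18.
Phyhd1: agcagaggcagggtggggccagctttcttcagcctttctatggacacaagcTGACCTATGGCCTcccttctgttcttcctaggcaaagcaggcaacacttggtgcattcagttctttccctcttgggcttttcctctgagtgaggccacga

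Chst11, which encodes a chondroitin sulfotransferase, held the glucocorticoid receptor motif, GNACA and TGTNC with 3 bases between them, in intron 2 of 2, at chr10:82644775-82644925, with pileups of 19 and 20.
Chst11: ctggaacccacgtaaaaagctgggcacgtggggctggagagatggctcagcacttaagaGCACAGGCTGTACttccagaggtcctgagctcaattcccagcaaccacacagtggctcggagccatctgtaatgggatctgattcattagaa

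Around the summits the sites differed in sequence from intragenic sites open in all 4 libraries, which serve as the main comparison (6247 sites outside the same TSS windows), and from 10850 intragenic sites closed by differentiation in both genotypes. Motifs were counted within 100 bp of the WT D8 summit on both strands (WT D0 summit for the closed sites). Sequence was not used to choose the sites. A match is a description of letters and not a bound factor. Repeat elements were not masked, for these counts or for the examples above, so a match may lie inside a repeat.

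The C/EBP motif TTGCNNAA was found at 815 of the 3141 sites, 25.9% (95% Wilson interval 24.4 to 27.5%). It was found at 13.7% of the sites open in all 4 libraries, 8.12% of the closed sites and 12.1% of all intragenic regions. The difference from the sites open in all 4 was 12.2 percentage points (95% Newcombe interval 10.5 to 14), and from the closed sites 17.8 points (16.2 to 19.5). The 2370 opened sites outside protein-coding genes held it at 28.2%, and the difference from these was -2.28 points (-4.66 to 0.0841), an interval that takes in 0. Among sites of 45 to 55% GC the difference from the sites open in all 4 was 9.95 points (7.60 to 12.3). A stricter C/EBP consensus, the palindrome centred on CG, was rare, at 0.987% against 0.576%, a difference of 0.411 points (0.0458 to 0.851).

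For NFI the answer depended on the letters searched. The full palindrome was found at 51 sites, 1.62%, against 1.79% of sites open in all 4 and 1.41% of all intragenic regions, a difference of -0.169 points (-0.697 to 0.418). The half-site TTGGCA was found at 871 sites, 27.7% (26.2 to 29.3%), against 18.9% of sites open in all 4, 15.6% of closed sites and 17.7% of all intragenic regions. That difference from the sites open in all 4 was 8.84 points (7.01 to 10.7), and the opened sites outside genes were close to the intragenic ones at 27.5%.

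PPARG:RXR and glucocorticoid receptor motifs were rare but also more frequent than at the sites open in all 4. The PPARG:RXR repeat was found at 33 sites, 1.05% (0.749 to 1.47%), against 0.464% of sites open in all 4 and 0.473% of all intragenic regions, a difference of 0.586 points (0.224 to 1.03). That interval took in 0 when the window was cut to 50 bp (0.0462 points) and when the HY summit was used (0.268 points). The glucocorticoid receptor motif was found at 36 sites, 1.15% (0.829 to 1.58%), against 0.464% and 0.488% in the same order, a difference of 0.682 points (0.306 to 1.14). EBF motifs were found at 75 sites, 2.39% (1.91 to 2.98%), against 1.89% of sites open in all 4, 1.04% of closed sites and 1.39% of all intragenic regions. The EBF share exceeded that of the closed sites by 1.35 points (0.824 to 1.97), while the difference from the sites open in all 4 was 0.499 points with an interval that takes in 0 (-0.105 to 1.17). The ERR motif TCAAGGTCA, bound by the oestrogen-related receptors, was found at 9 sites, 0.287% against 0.240% and, of all intragenic regions, 0.315%.

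AP-1, CTCF and TEAD motifs were less frequent than at the sites open in all 4. The AP-1 motif TGANTCA was found at 216 sites, 6.88% (6.04 to 7.82%), against 23.7% of sites open in all 4, 31.5% of closed sites and 23.5% of all intragenic regions. The difference from the sites open in all 4 was -16.8 points (-18.2 to -15.4). CTCF (CCANN followed at once by AGNNGGC) was found at 62 sites, 1.97%, against 8.64%, 7.77% and 7.11% in the same order, a difference from the sites open in all 4 of -6.67 points (-7.51 to -5.80). TEAD (GGAATG) was found at 386 sites, 12.3%, against 16.7%, 22.7% and 18.3%, a difference of -4.44 points (-5.89 to -2.94). The GC content within the window had a median of 50.2%, against 52.2% for sites open in all 4 and 48.8% for closed sites, and its part in these differences was checked only by the 45 to 55% GC subset, where the AP-1, CTCF and TEAD differences were -20.3, -6.98 and -6.04 points.

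For AP-1, TEAD, CTCF, PPARG:RXR, the glucocorticoid receptor motif and EBF, the opened sites outside protein-coding genes were nearer to the intragenic ones than the sites open in all 4 were. They held AP-1 matches at 8.31%, from which the intragenic sites differed by -1.44 points (-2.88 to -0.0307), and TEAD matches at 11.7%, a difference of 0.601 points (-1.15 to 2.32). They held PPARG:RXR at 0.886% (0.165 points, -0.389 to 0.685), the glucocorticoid receptor motif at 0.928% (0.218 points, -0.352 to 0.756) and EBF at 2.78% (-0.397 points, -1.28 to 0.441). CTCF stood at 1.22%, a difference of 0.750 points (0.0685 to 1.41). Of these 6 intervals, only those of AP-1 and CTCF leave out 0.

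**Figure D1:**
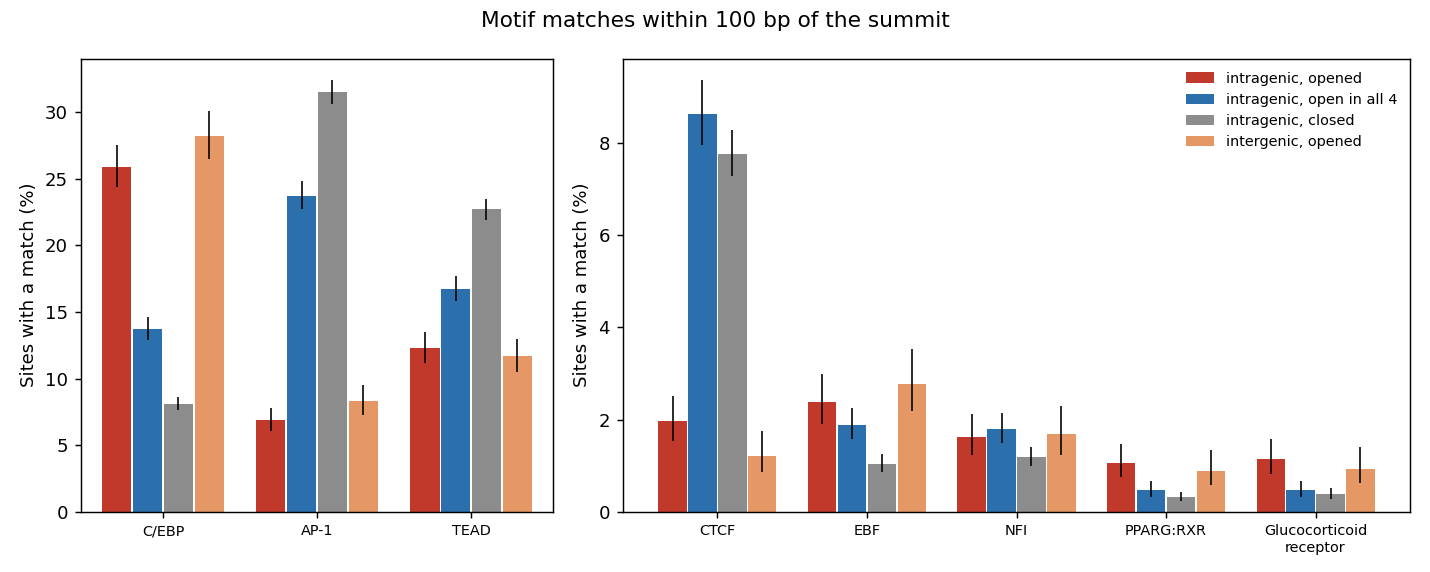
Percent of sites with a motif match within 100 bp of the summit, in 4 sets of sites outside TSS windows, with 95% Wilson intervals (counting error only). C/EBP stood at 25.9% of the intragenic opened sites and 13.7% of those open in all 4 libraries, AP-1 at 6.88% and 23.7%.

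Matches were also placed by distance from the summit, which compares each set with its own flanks. At the opened sites C/EBP matches within 50 bp of the summit were 3.22 times as dense as at 400 to 500 bp (71.8 against 22.3 per 1000 sites per 50 bp), and at the sites open in all 4 they were 1.92 times as dense. NFI half-sites were 2.87 times as dense at the centre, against 1.73 times at the sites open in all 4. The full NFI palindrome stood at 1.67 against 1.33 times. EBF stood at 3.22 against 2.35, the glucocorticoid receptor motif at 3.85 against 1.83 and PPARG:RXR at 2.50 against 1.31. These rest on 29, 25 and 15 matches within 50 bp of the opened summits. AP-1 showed the opposite order, with 1.29 times at the opened sites (20.7 against 16.0) and 5.27 times at the sites open in all 4 (84.8 against 16.1). CTCF stood at 1.33 and 6.10 times, TEAD at 1.26 and 1.73 and ERR at 0.571 and 0.600. In the flanks the opened sites and the sites open in all 4 were close, with 22.3 and 19 C/EBP matches and 16.0 and 16.1 AP-1 matches per 1000 sites per 50 bp.

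**Figure D2:**
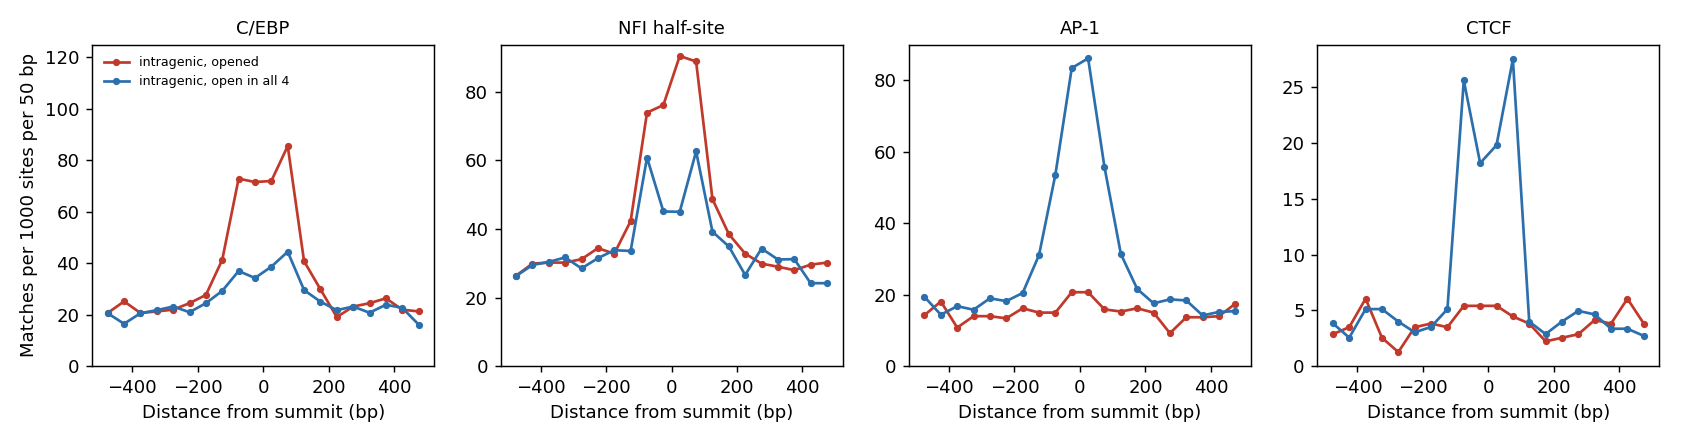
Motif matches per 1000 sites in 50 bp bins, by distance of the match centre from the summit, at intragenic opened sites (red) and intragenic sites open in all 4 libraries (blue). Within 100 bp of the summit, C/EBP and NFI half-sites were denser at the opened sites, and AP-1 and CTCF matches at the sites open in all 4. There AP-1 was highest in the bins next to the summit, and CTCF in the bins 50 to 100 bp from it (25.6 and 27.5 per 1000 sites).

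Most opened sites held none of C/EBP, the full NFI palindrome, EBF and PPARG:RXR: 2195 sites, 69.9%, against 82.8% of the sites open in all 4. 1 of these motifs was found at 918 sites and 2 or more at 28. C/EBP with EBF was found at 13 sites, C/EBP with NFI at 8 and C/EBP with PPARG:RXR at 6, each below the product of the separate shares (0.414% against 0.620% for C/EBP with EBF). Split into 4 equal groups by the weaker of the 2 values of -log10 q, C/EBP matches stood at 23.3% (20.5 to 26.4%) of the weakest group and 28.0% (25 to 31.3%) of the strongest, with overlapping intervals. AP-1 matches stayed between 6.62% and 7.39% in the 4 groups.

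The opened sites were of moderate height in both D8 libraries. The summit pileup, the number of overlapping tags at the highest point of a peak, ran from 5 to 72 in WT D8 (median 12) and from 4 to 63 in HY D8 (median 13). The medians over all 31388 regions with a peak in both D8 lists were 16.0 and 17.0. A pileup of at least 20 in both libraries was reached by 487 sites (15.5%) and of at least 40 by 31. The authors' fold enrichment over local background had medians of 6.22 (WT) and 6.40 (HY) on day 8.

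Ranked by the -log10 q of the weaker library, the 12 strongest sites lay in genes of several kinds, and each is given by its pileup in WT D8 and then in HY D8. This order is not that of the pileup: the site with the most tags in WT D8, 72 with 58 in HY D8, was not among them. Myh10, which encodes a non-muscle myosin heavy chain, held 54 and 56 tags in intron 3 (chr11:68546887-68547343), and had the highest -log10 q in its weaker library (53.2). Adcy5, an adenylyl cyclase gene, held 61 and 58 in intron 1 (chr16:35216921-35217492), with 12.8-fold and 12.7-fold enrichment. Pcx, which encodes pyruvate carboxylase, held 61 and 63 in intron 2 (chr19:4557868-4559267) and 42 and 40 at a further site of the same intron (chr19:4578637-4579295). At these 4 sites the libraries were within 3 tags of each other. Ranking by the weaker library favours sites of like height.

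The others among these 12 had between 36 and 57 tags. Wdr67 held 42 and 50 tags, Acer2 (an alkaline ceramidase gene) 52 and 57, Slc2a13 (a myo-inositol transporter gene) 43 and 46, and Ank (a pyrophosphate transporter gene) 42 and 50. Bcl2l10, of the Bcl2 family, held 45 and 43, Anks1b 36 and 48, Ccdc69 44 and 39, and Acaca, which encodes the rate-limiting acetyl-CoA carboxylase of fatty acid synthesis, 40 and 44. All 12 lay in introns. The Acer2 site, on chromosome 4 and 0.814 kb from the nearest D0 peak, held C/EBP, glucocorticoid receptor and TEAD matches, and the Anks1b site was 103 kb from any D0 peak.

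Heights in the 2 genotypes went together. The Spearman correlation of WT D8 and HY D8 pileup across the 3141 sites was 0.790, given as a description, since both values had to pass a caller's threshold. The summits lay a median of 35.0 bp apart, and at 1926 sites (61.3%) within 50 bp. After scaling by the background rates, the HY/WT ratio had a median of 1.07 (quartiles 0.905 and 1.34), against 1.11 for all regions with a peak in both D8 lists. HY was at least 2 times WT at 56 sites (1.78%, against 1.68% of all regions shared by the D8 lists), and at most 0.5 times WT at 23 sites (0.732% against 0.510%). Both shares were near the background, and both moved with the scaling: with regions open in all 4 libraries as the scale they were 0.764% and 1.43%, and with the fold enrichment in place of the pileup 0.255% and 0.318%.

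**Figure D3:**
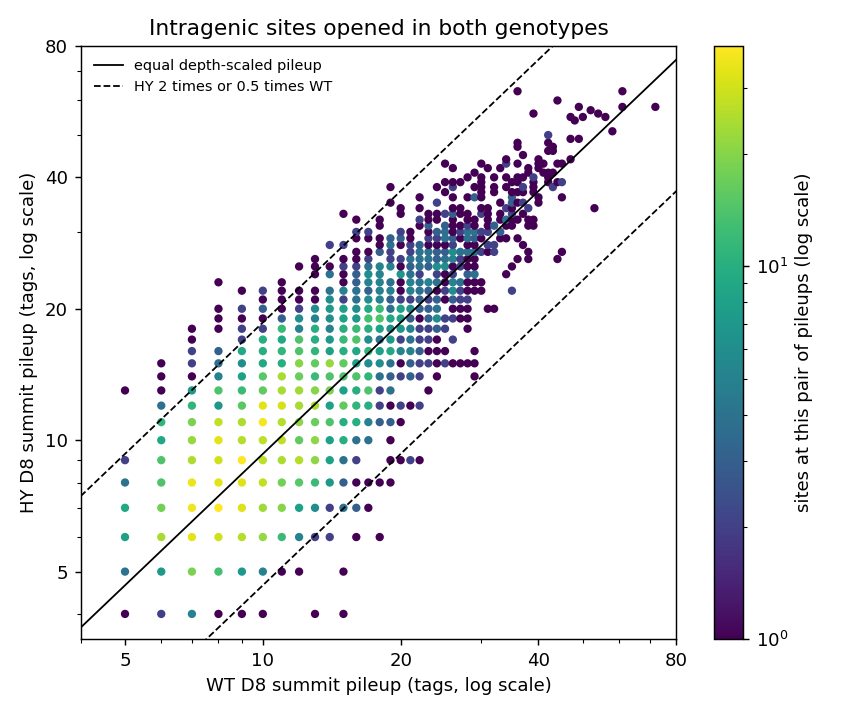
Summit pileup in HY D8 against WT D8 at the 3141 opened intragenic sites, both on log scales, with colour for the number of sites at each pair of whole-number pileups. The solid line marks equal depth-scaled pileup and the dashed lines a ratio of 2 or 0.5, beyond which 56 and 23 sites lie.

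The sites named by ratio were limited to those with at least 20 tags in either D8 library, a limit that all 10 passed only through the library where they were higher, so they are given as values and support nothing about the genotypes. Left out by it were a site in Wiz (5 and 13, 2.79) and the site with the lowest ratio of all, 0.286. Within the limit the highest ratios were at Plcl2 (8 tags in WT and 23 in HY, ratio 3.09), Arid1b, a chromatin remodelling subunit gene (8 and 20, 2.69), Sf3a1, a splicing factor gene (9 and 22, 2.63), Nrp1, which encodes a semaphorin and VEGF co-receptor (9 and 20, 2.39), and Cdh26 (9 and 20, 2.39). The lowest were at Stk39, a kinase gene (22 and 9, 0.439), Bahcc1 (21 and 9, 0.460), Hopx (21 and 9, 0.460), Calr4 (20 and 9, 0.483) and Plin2, which encodes a lipid droplet coat protein (29 and 14, 0.519). With 1 library per group none of these ratios has a replicate check. At Sf3a1 and Cdh26 the summits of the 2 libraries were 495 and 231 bp apart, so the ratio there sets different parts of a region side by side.

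By position, 2934 sites (93.4%) had their midpoint in an intron, 80 in a coding exon, 105 in a UTR and 22 in another exon. Introns made up 93.8% of the bases of the longest transcripts, so the share in introns was close to that of gene bodies at large. Coding exons held 2.55% of the opened sites and 4.07% of the sites open in all 4 libraries, a difference of -1.52 points (-2.24 to -0.752). The first intron held 1061 sites, 33.8% (32.1 to 35.5%), while first introns made up 25.4% of gene-body bases. Sites open in all 4 had 33.6% there, and the closed sites 29.0%, so the opened sites exceeded the closed ones by 4.79 points (2.95 to 6.67) and differed from the sites open in all 4 by 0.227 points (-1.79 to 2.26). The TSS windows left out of all sets take some bases from first introns.

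The opened sites lay a median of 31.9 kb from the start of their gene (quartiles 11.3 and 86.0 kb), the sites open in all 4 a median of 32.3 kb and the closed sites 43.9 kb. At over 100 kb from the start stood 21.5% of the opened and 27.9% of the closed sites, a difference of -6.37 points (-8.01 to -4.68), and the genes holding closed sites were longer (median over sites 113 against 90.9 kb). The last 20% of the gene's length held 17.4% of the opened sites, 19.5% of those open in all 4 and 20.3% of the closed ones. The nearest D0 peak of either genotype was a median of 4.56 kb away, within 500 bp for 319 sites (10.2%) and within 50 kb for 98.5%.

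Many opened sites stood in groups. Another opened intragenic site was within 10 kb of 864 sites (27.5%), which formed 387 groups, 15 of them with 4 or more. Rreb1, which encodes a zinc finger protein of the Ras pathway, had 5 sites in 6.36 kb, with 12 to 28 tags (WT) and 12 to 29 (HY). Ltbp2, which encodes a matrix protein of microfibrils, had 5 in 24.2 kb. Dtx2, a ubiquitin ligase gene of the Notch pathway, had 4 in 11.3 kb, with 20 to 37 tags in WT and 19 to 44 in HY. Fabp12, a fatty acid-binding protein gene near Fabp4, had 4 in 11.8 kb within intron 1, with 26 to 36 tags in WT and 35 to 38 in HY. These groups were named after their values were seen.

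The sites fell in 2052 of 21418 protein-coding genes (9.58%). Of these genes, 1399 held 1 site, 388 held 2, 59 held 5 or more and 4 held 10 or more, and 103 sites lay in more than 1 gene. Host genes were long, with a median of 63.5 kb against 13.2 kb for genes with no site, and the share of genes holding a site went from 1.14% below 10 kb to 32.7% above 100 kb. A peak at a promoter in all 4 libraries was found for 78.9% (77.1 to 80.7%) of the host genes and 50.3% of all genes. A promoter peak in both D8 lists and in neither D0 list was found for 28 host genes, 1.36% (0.946 to 1.97%), against 0.460% of genes with no site, so most host genes already had a promoter peak at D0.

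The 10 genes with the most sites began with gene models whose annotated span is very long. Gm20388 held 37 sites in a span of 4435 kb that takes in 72 other protein-coding genes, and Fgfr2 held 15 in a span of 3009 kb that takes in 31. Of those sites, 18 and 4 had no other host. Dapk1, which encodes a death-associated protein kinase, held 12 sites in 161 kb. Ebf1 held 9, Rreb1, Pdzd2 and Zbtb20 held 8 each, and Zbtb16 and Sik3, a salt-inducible kinase gene, 7 each. Ties went to the gene with more sites per length, so Nfia, also with 7, fell outside the 10. All 10 had a promoter peak in all 4 libraries.

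In Dapk1 the pileups ran from 9 to 34 in WT and from 8 to 32 in HY, and all sites but the first lay between 52.37 and 106.3 kb from the start. In Ebf1 they were low throughout, from 6 to 18 in WT and from 8 to 20 in HY.

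**Figure D4:**
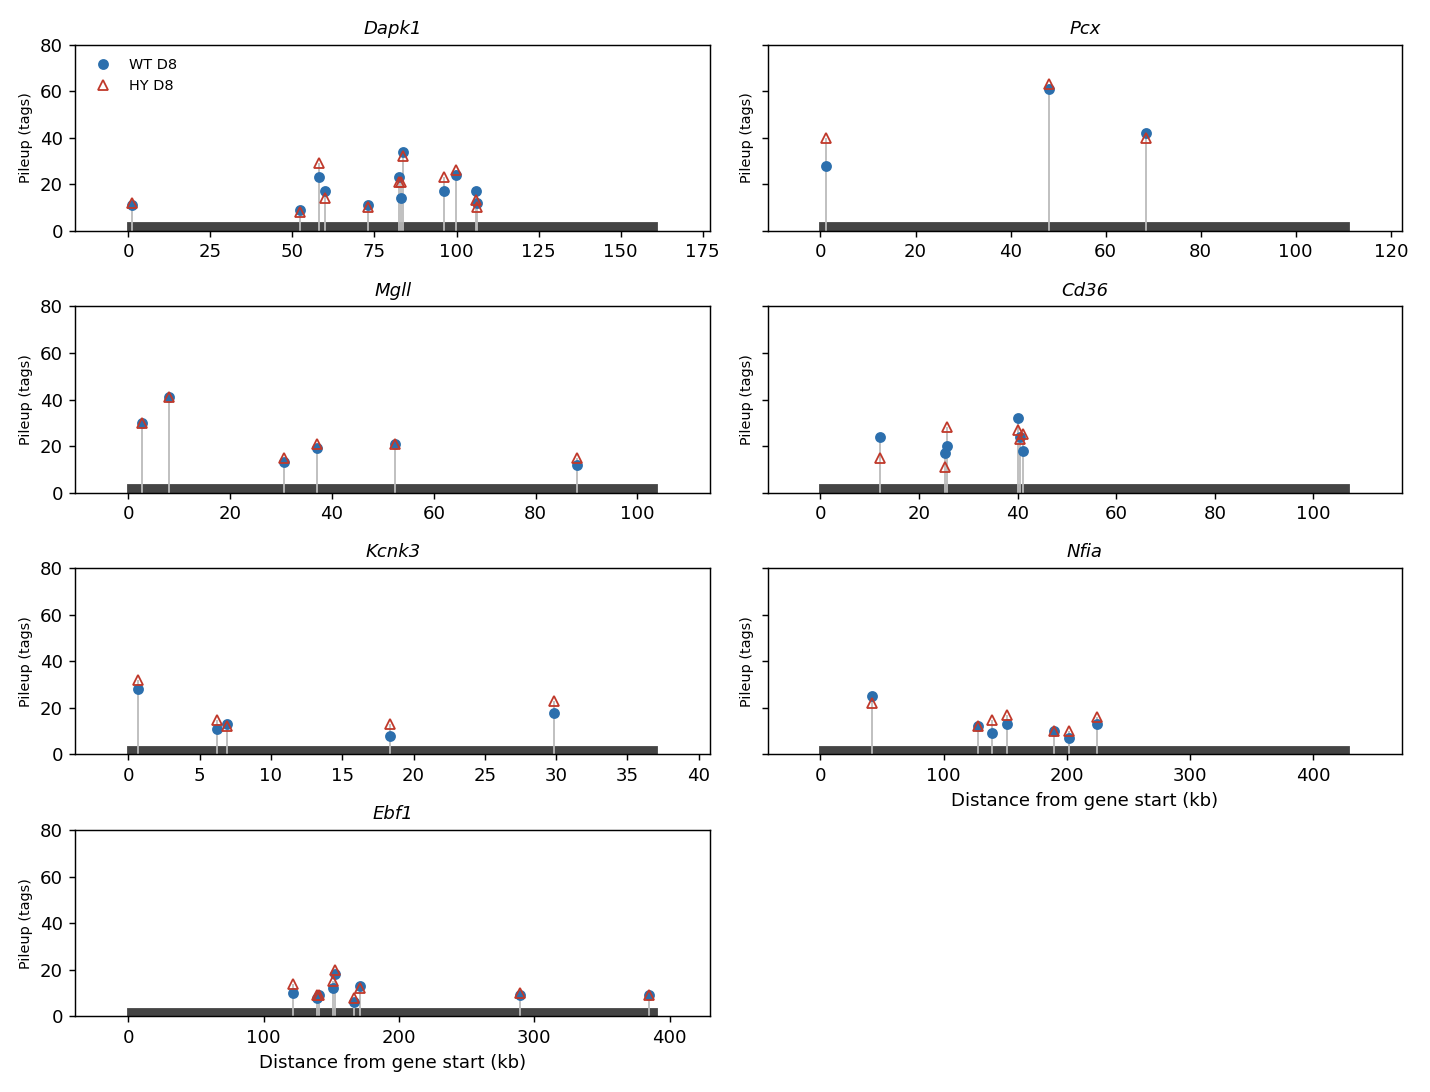
Summit pileup (tags) in WT D8 (filled circles) and HY D8 (open triangles) at the opened sites along 7 genes, by distance of the site from the gene start in kb, with the gene drawn as a dark bar. The Pcx site at 48.1 kb reached 61 and 63 tags, and the 9 Ebf1 sites stayed at 20 tags or less. The genes were picked after their values were seen.

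Genes of 6 adipocyte-related lists were hosts more often than the 9.58% of all coding genes, 52 of 106 annotated genes (49.1%), with 131 sites at 14.8 sites per Mb of gene body, against 3.24 per Mb over all coding genes. The lists were chosen with results of these data known, gene length differs between them, and the counts are a description. The median pileup of the 131 sites was 16.0 in WT D8 and 15.0 in HY D8, 97.7% lay in introns and 32.8% held a C/EBP match. Their HY/WT ratio had a median of 1.11. It was at or above 2 at 1 site, 0.763% against 1.68% of all regions with a peak in both D8 lists. It was at or below 0.5 at 1 site, 0.763% against 0.510%.

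Lipid droplet and triglyceride genes had the densest sites, with 12 of 19 genes as hosts (63.2%) and 48.3 sites per Mb in genes of 11.4 kb median length. Mgll, which encodes monoacylglycerol lipase, held 6 sites, with pileups of 41, 21, 30, 19, 12 and 13 in WT D8 and 41, 21, 30, 21, 15 and 15 in HY D8, close at each site. Lipe, which encodes hormone-sensitive lipase, held 1 in intron 1 (chr7:26176813-26177311) with 39 tags in WT and 56 in HY. Cidec, which encodes a lipid droplet fusion protein and whose promoter had a peak at D8 only, held 1 with 26 and 27. Dgat1, of the last step of triglyceride synthesis, held 2 with 26 and 25 in WT and 33 and 30 in HY, and Plin2 held 2 with 29 and 16 in WT and 14 and 14 in HY. The Dgat1 site of 26 and 33 tags had a -log10 q of only 4.30 in WT and 6.31 in HY. Abhd5, the coactivator of adipose triglyceride lipase, held 3 low sites of 9 to 12 tags. The other hosts were Fitm2, Bscl2, Dgat2, Agpat9, Gpam and Lpin1, with 9 to 25 tags in WT and 9 to 26 in HY.

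Fatty acid uptake and synthesis genes were hosts in 10 of 20 cases (50%), at 18.9 sites per Mb. Cd36, the fatty acid transporter gene, had a promoter peak at D8 only and held 6 sites, with 20, 32, 24, 24, 18 and 17 tags in WT and 28, 27, 15, 23, 25 and 11 in HY, some higher in one library and some in the other. Pcx held 3, with 61, 42 and 28 tags in WT and 63, 40 and 40 in HY. Lpl, which encodes lipoprotein lipase, held 1 in intron 1 with 38 and 34 tags, and Fabp4, which encodes the adipocyte fatty acid-binding protein, 1 in intron 3 with 37 and 37. A like pileup did not mean a like -log10 q, which was 21.1 (WT) and 18.1 (HY) at Lpl and 7.17 and 7.34 at Fabp4. Mlxipl, which encodes the carbohydrate response factor ChREBP, held 2, the stronger at 1.33 kb from the gene start with 30 and 36 tags. Acaca, Acacb, Acsl1, Elovl5 and Me1 were the other hosts. Fasn, Scd1, Acly and Fabp5 were among the 10 genes without a site.

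Thermogenic genes were hosts in 7 of 19 cases (36.8%), at 10.9 sites per Mb. Kcnk3, which encodes a potassium channel of brown and beige fat, held 5 sites in 37.1 kb, with 28, 18, 13, 11 and 8 tags in WT and 32, 23, 12, 15 and 13 in HY. Esrrg, an oestrogen-related receptor gene with no promoter peak in any library, held 3, with 13, 12 and 8 tags in WT and 24, 16 and 9 in HY. Ebf2, whose promoter had a peak at D0 only, held 3 with 12, 12 and 10 in WT and 17, 12 and 11 in HY, and Prdm16, a coregulator of the thermogenic programme, 3 with 16, 11 and 12 in WT and 12, 14 and 8 in HY. Ppargc1b, a coactivator of mitochondrial biogenesis, held 2, with 18 and 12 tags in WT and 15 and 15 in HY, the stronger in intron 1 at 16.7 kb from the gene start (chr18:61543183-61543564). Esrra held 1 with 23 and 26, and Otop1 1 with 15 and 5. Ucp1, Cidea, Ppargc1a, Ppara and Dio2 held none. Under the rule a site upstream of a gene could not count for it. The study's predicted enhancers of Ucp1, Cidea, Ppargc1a and Ppara lie upstream.

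Adipogenic transcription factor genes were hosts in 11 of 19 cases (57.9%), at 14 sites per Mb in genes of 70.0 kb median length. Pparg held 1 site in intron 2, 63.3 kb from the gene start (chr6:115374197-115374816), with 34 tags in each D8 library. Nfia held 7, with 25, 13, 12, 13, 10, 7 and 9 tags in WT and 22, 16, 12, 17, 10, 10 and 15 in HY. Zfp423, a preadipocyte factor gene, held 3, of which the strongest had 14 tags in WT and 28 in HY (ratio 2.15) and each of the others 7 in WT and 9 in HY. Stat5b held 2 and its neighbour Stat5a 1, with 25 and 16 tags and 17 tags in WT. Nr3c1, which encodes the glucocorticoid receptor, held 2 with 17 and 11 tags in WT and 13 and 11 in HY. Rxra, Nfib, Nfix, Ebf1 and Srebf2 were the other hosts.

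Insulin and adrenergic signalling genes were hosts in 11 of 20 cases (55%), at 10.8 sites per Mb in genes of 84.6 kb median length. Adcy5 held 3 sites, with 61, 19 and 22 tags in WT and 58, 25 and 15 in HY. Also high were sites in Pde4d, a cAMP phosphodiesterase gene (45, 14 and 17 tags in WT and 36, 8 and 10 in HY) and Tbc1d4, which encodes a regulator of glucose transporter traffic (26, 16 and 14 in WT and 22, 21 and 20 in HY). Insr, the insulin receptor gene, held 4 low sites, with at most 11 tags in WT and 14 in HY. Irs2, Pik3r1, Akt2, Prkar2b, Cblb and Foxo1 were further hosts. Of 9 adipokine genes only Nrg4, which encodes a secreted neuregulin of brown fat, held sites: 4, with 19, 12, 14 and 15 tags in WT and 29, 11, 9 and 10 in HY.

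The lists of other kinds held fewer sites per length than any of the 6 adipocyte-related lists. Preadipocyte and matrix genes were hosts in 3 of 20 cases (Pdgfrb, Col3a1 and Twist2), at 4.08 sites per Mb. Neuron genes were hosts in 4 of 18 cases, a larger share than over all genes, but their median length was 244 kb and their density 0.458 sites per Mb. Skeletal muscle genes were hosts in 1 of 19 cases (Mb, 2 sites), at 2.13 per Mb.

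**Figure D5:**
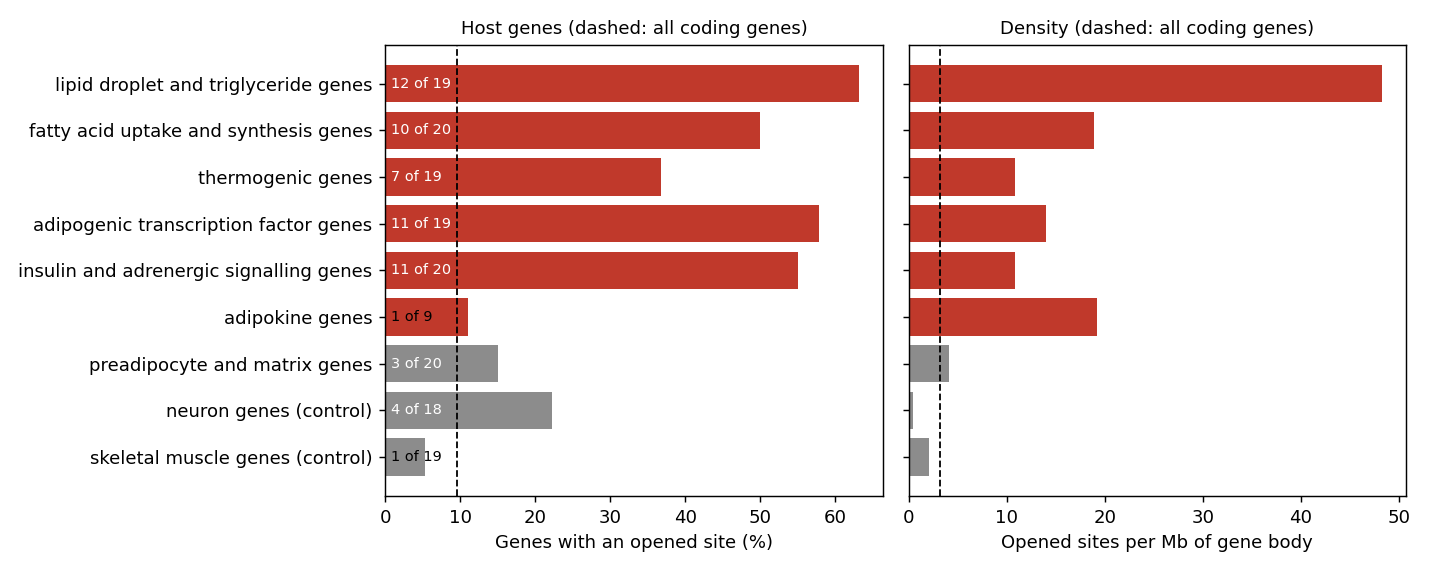
Left, percent of annotated genes of each list with an opened intragenic site. Right, opened sites per Mb of the list's gene bodies. Dashed lines give all protein-coding genes (9.58% and 3.24 per Mb). Lipid droplet and triglyceride genes stood highest on both scales, and neuron genes (22.2%, 0.458 per Mb) on opposite sides of the lines.

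At the edges of the rule, the weakest sites were in Arid1b (8 tags in WT and 5 in HY, -log10 q 2.67 and 1.31), Wiz (5 and 13, 1.32 and 9.18) and Afmid (19 and 11, 5.74 and 1.40). Just outside it, 381 intragenic regions had both D8 peaks and a D0 peak in WT only and 399 in HY only, with a median D0 pileup of 9 tags. A D8 peak in WT only was found at 1133 intragenic regions without a D0 peak (median 8 tags) and in HY only at 2514 (median 7 tags), against a median of 12 and 13 at the sites described here. A further 279 opened intragenic regions were kept out by the TSS window.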

How the data were processed

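4 ATAC-seq libraries of im-scWAT cells were used, each as the peak list its authors deposited. Processing notes in the labels name Bowtie2, SAMtools, Picard, deepTools and mm9. The study's methods refer ATAC-seq to the procedure for ChIP-seq data, for which they name HOMER and MACS3 as peak callers. Which caller made these lists, versions, the calling threshold and any shift of read ends are not given in the sources used here. The fold column deposited by the authors fits the ratio of summit pileup to local background with 1 added to each, which lowers the fold of low sites. The -log10 p and -log10 q columns and the score, a rescaled q, were deposited as the peak caller gave them, and the other column used gives the summit's offset. Reads were not used. Pileup and local background were solved per peak from fold and -log10 p, and 100% of peaks were solved within 0.002. The lowest background of a list gave its relative depth, and absolute depth is unknown. Summits and motif windows depend on the unstated read shift by a few bases.

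Regions were merged with bedtools 2.31.1 and annotated with GENCODE vM1 on NCBIM37 (mm9), and 0 peaks lay beyond a chromosome end. A site in several genes was assigned to a coding exon before a UTR, another exon or an intron. Scripts ran in Python 3.11.15 with SciPy 1.17.1 and were tested on simulated data. Shares have Wilson and differences of shares Newcombe 95% intervals. A depth-scaled ratio of at least 2 or at most 0.5 counted as called. Of 170 listed symbols 7 matched no gene on these chromosomes. The members, gene lists and motifs were chosen with earlier results of these data known. Genes were named by rule: the 12 sites with the highest -log10 q in the weaker library, the 10 genes with the most sites, hosts in the lists, the 5 highest and 5 lowest ratios among sites with at least 20 tags in either D8 library, and the motif examples; groups of sites and the genes drawn as maps were chosen after their values were seen. Some sequences that the rule allowed are not shown. 1 gene that the rule named is not reported here. The alternatives included other overlap, depth, TSS and motif settings; 2 were added after seeing the data.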

Additional observations from a re-analysis of the deposited data

How the results depend on the processing

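The 2 opened-site counts that moved most came from using 1 genotype alone, with 5104 sites from the WT lists and 6352 from the HY lists (3462 host genes), and D8 peaks of -log10 q at least 5 left 1939 sites. Intron shares were then 91.7% (WT lists) and 92.4% (HY lists), and first-intron shares 32.1% (HY lists) and 31.5% with the TSS window widened to 2000 bp before and 1000 bp after. The AP-1, CTCF, TEAD, C/EBP and glucocorticoid receptor differences from sites open in all 4 libraries kept their sign, with intervals that leave out 0, under every setting run for them (AP-1 between -20.3 and -11.2 points, C/EBP between 0.411 and 14 points). The EBF difference had an interval above 0 with D0 peaks covering under 50% of the region (0.704 points), lists of equal length (0.950) and the midpoint rule for the TSS window (0.700), and the PPARG:RXR interval took in 0 with a 50 bp window (0.0462) and the HY summit (0.268). For NFI the half-site turned the difference to 8.84 points. The share of sites with HY at least 2 times WT was 2.36% with lists of equal length, 0.764% with the scale from regions open in all 4 and 0.255% with fold enrichment, and with HY at most 0.5 times WT it was 0.103% (-log10 q at least 5), 0.319% (equal length), 1.43% and 0.318%. Without gene models over 1 Mb, an alternative chosen after seeing the data as was the GC subset, 3098 sites remained, 51 of the adipocyte-list genes were hosts against 52, 1.71% of sites had HY at least 2 times WT, and the motif differences kept their side of 0. The cause of these shifts was not tested. Each group is 1 library, so no replicate could be left out, and no paired test was made. Depth limits the low sites: the lower quartile of the pileup was 9 tags in both D8 libraries.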

Other observations

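The stronger opened sites were tighter between genotypes: the median distance between the WT D8 and HY D8 summits was 48.0 bp in the weakest of 4 equal groups of sites by -log10 q and 24.0 bp in the strongest. The first intron held 35.9% of the weakest group and 30.1% of the strongest, while introns as a whole held between 93.1% and 94.1% of every group. The median depth-scaled HY/WT ratio was 1.07 both at sites with a C/EBP match and at sites without, and 1.20 at the 36 sites with a glucocorticoid receptor match against 1.07 at the others. The sites were denser on chromosomes 19 and 11 (1.92 and 1.89 per Mb) than on chromosomes 3 and 1 (0.739 and 0.872 per Mb), as counts per chromosome length without regard to gene density.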
